A study of Mus musculus with 20 samples.

Results

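The genes described here form a module of 34 genes for amino acid metabolism and the ATF4 stress response, picked by symbol. The list was chosen with earlier results of these data known, so shares of members set beside all genes are not independent of that choice. All 34 symbols were found among the 23284 genes of the count table. By role, 10 are transcription factors and stress effectors, 8 act in serine, glycine and one-carbon metabolism, 7 in the synthesis or transamination of other amino acids, and 9 are amino acid transporters or their subunits. ATF4 is a transcription factor whose translation increases when the factor eIF2 is phosphorylated, for example when amino acids run short, so its protein is set largely after transcription. With C/EBP partners it induces enzymes that make serine, glycine, proline and asparagine and the carriers that import neutral, basic and sulfur amino acids. Thymocytes that divide at the beta-selection checkpoint need these pathways for protein and nucleotide synthesis, and the transporters SLC7A5, SLC3A2 and SLC1A5 serve activated and growing T cells.

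RNA was sequenced from sorted DN3 thymocytes of C57BL/6 mice, in 20 libraries and 6 groups that form 3 pairs, in a study of how the coregulator ZMIZ1 works with the receptor Notch1. DeltaMxCre (n = 3) carried floxed Zmiz1 with MxCre, whose promoter responds to interferon in blood and other cells, and MxCre (n = 3) carried that Cre alone. Both received 40 mcg of pI-pC every 2 days for 5 injections and were sorted 8 weeks later. AntiNRR (n = 3) received 10 mg/kg of an antibody against the negative regulatory region of Notch1 and IgG (n = 3) an isotype control antibody, 24 h before the sort. DeltaTamCre (n = 4) carried floxed Zmiz1 with Rosa26CreERT2, which is expressed in most tissues and is active with tamoxifen, and TamCre (n = 4) carried that Cre alone, and both were sorted 43 to 44 h after 0.2 mg/g of tamoxifen. Each Cre group had as many mice as libraries, whereas neither the mouse numbers of the antibody groups nor any ages are given in the sources used here. For AntiNRR the p-values therefore measure spread between samples, which may be technical. The Mx and antibody libraries were made with the SMARTer Ultra low input kit and the Tam libraries with the TruSeq mRNA v2 kit, and effects of kit and model cannot be told apart.

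Values are TMM-scaled expected counts as CPM, and differences are log2 fold changes ± SE of the perturbed group over its control. Calls were made under an adjusted p of 0.05 in the quasi-likelihood test of edgeR, after Benjamini-Hochberg adjustment over all genes tested. Zmiz1 was at 298 to 360.3 CPM in MxCre and 116 to 132 in DeltaMxCre, and at 272 to 324 CPM in TamCre and 169 to 220.3 in DeltaTamCre. It fell in both deletions and was at 260.2 to 310.0 CPM in IgG and 311 to 324 in AntiNRR. Library totals ran from 11695668 to 19133149 counts with SMARTer and from 52615332 to 101425251 with TruSeq, where 3 counts make 0.157 to 0.257 CPM and 0.0296 to 0.057 CPM. The labelled gate reads CD44-positive and CD25-negative, the reverse of textbook DN3 cells. The summed CPM of 10 DN3 marker genes was between 9691 and 15963 in every library, with none at 0. That sum was not set against cells of other stages, so it does not settle which gate was used. Pax5 of B cells was at 0 in the SMARTer groups and Foxn1 of thymic epithelium in all groups. Summed B cell, myeloid, erythroid and epithelial markers reached at most 102 CPM, and dendritic markers 54.7 CPM with SMARTer and 196 to 263 CPM with TruSeq. In bulk RNA, fewer cells of a type and less RNA per cell cannot be told apart.

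The sequences just before the start of transcription are shown for the members that hold a match to the core of the ATF4 response element, TGATGNAA, or to the E-box CACGTG that MYC and related factors bind, whole within the 120 bases upstream. They come from RefSeq windows on GRCm38.p6, run 5′ to 3′ on the gene's own strand, and carry the match in capitals. Capitals that do not spell TGATGNAA or CACGTG hold it on the opposite strand, and no match overlaps a match of the other motif.
Asns, chr6:7693210-7693329, minus strand: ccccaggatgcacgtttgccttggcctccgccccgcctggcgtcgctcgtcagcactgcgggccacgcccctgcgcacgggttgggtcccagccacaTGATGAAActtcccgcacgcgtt
Pycr1, chr11:120643749-120643868, minus strand: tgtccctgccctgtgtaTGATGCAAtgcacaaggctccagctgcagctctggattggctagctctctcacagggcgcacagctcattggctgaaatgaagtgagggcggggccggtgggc
Slc7a11, chr3:50443614-50443733, minus strand: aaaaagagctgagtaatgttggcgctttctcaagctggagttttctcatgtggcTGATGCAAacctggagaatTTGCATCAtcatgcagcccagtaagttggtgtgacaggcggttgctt
Got1, chr19:43524606-43524725, minus strand: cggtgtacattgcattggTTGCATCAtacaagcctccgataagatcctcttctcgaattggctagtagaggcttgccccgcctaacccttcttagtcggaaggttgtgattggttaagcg
Atf3, chr1:191183334-191183453, minus strand: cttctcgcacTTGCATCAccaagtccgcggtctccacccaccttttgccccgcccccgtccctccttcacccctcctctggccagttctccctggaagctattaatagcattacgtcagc
Aldh18a1, chr19:40588464-40588583, minus strand: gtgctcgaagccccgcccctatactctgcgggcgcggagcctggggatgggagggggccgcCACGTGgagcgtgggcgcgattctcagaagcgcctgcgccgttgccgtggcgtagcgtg
Slc7a11, the cystine carrier, held a pair of matches on opposite strands. Windows of 300 bases, from 250 before to 50 after the start, were at hand for 31 of the 34 members, all but Slc7a5, Slc1a5 and Slc38a1. On either strand, TGATGNAA was in the windows of 8 members (25.8%): the 5 above, Chac1, Trib3 and Slc1a4. Of all 27025 genes with a window, 4.51% held it. CACGTG was in 1 member (3.23%), Aldh18a1, and in 8.09% of all genes. A match describes letters and not binding, and no match says only that the letters are not in that window. Of the 6 members called in any comparison, 5 had a window, and 0 of these 5 held TGATGNAA.

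Most holders of the ATF4 element were expressed at low levels. Per length, on the authors' group FPKM, Phgdh, the first enzyme of serine synthesis, came highest in all 3 control groups, at 167 in MxCre, 157 in IgG and 367 in TamCre. Below it the order differed between groups. Got2, the mitochondrial aspartate aminotransferase gene, ranked 3, 4 and 3 (76.1, 61.4 and 135 FPKM) and Shmt2 ranked 4, 6 and 2 (66.8, 44.8 and 175 FPKM). The sodium-coupled neutral amino acid carrier gene Slc38a1 ranked 2, 2 and 10 (76.3, 81.3 and 55.3 FPKM) and its relative Slc38a2 ranked 5, 3 and 7 (61.1, 76.9 and 65 FPKM). Atf4 ranked 8, 8 and 4, at 53.8, 34.9 and 122 FPKM. Chac1, Trib3, Atf3, Slc1a4, Pycr1 and Slc7a11 were listed under 2 FPKM in every control group, a range in which the table's values look to have had 1 added and are not ranked here. In CPM, Chac1, a glutathione-degrading enzyme and marker of ATF4 activity, reached at most 0.679 in any library, Trib3, a pseudokinase induced by ATF4, 0.698, and Atf3, a stress-induced factor, 1.13. Values of 3 counts or fewer in these genes are at the limit of detection. Asns, which makes asparagine, ran from 0 to 4.60 CPM and Got1, the cytosolic aspartate aminotransferase, from 9.8 to 12.6 CPM in AntiNRR to 26.3 to 41.6 CPM in TamCre.

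**Figure D1:**
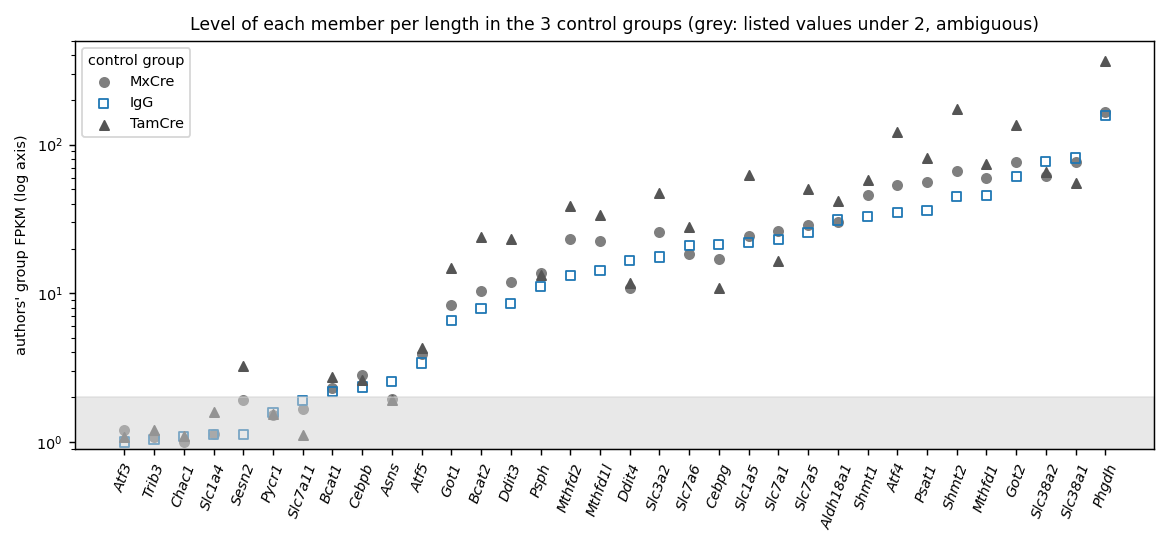
Authors' group FPKM of the 34 members in the 3 control groups (vertical axis logarithmic, 1 point per gene and group, no error given by the authors), ordered by IgG. Phgdh is highest in all 3 groups, and the grey band holds listed values under 2, where Chac1, Trib3 and Atf3 lie.

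The antibody comparison asked which of these genes depended on Notch1 signalling over 24 h. By role, 2 of 8 one-carbon genes, 2 of 9 carriers and 1 of 7 other synthesis genes fell, and no stress effector was called. Shmt1 and Mthfd1 of the cytosolic folate cycle, the carrier genes Slc1a5 and Slc7a1, and Aldh18a1 fell by 0.61 to 0.93 on the log2 scale. Of 31 members tested, 5 fell, 0 rose and 26 did not pass, where 4.06% of all 13557 genes were called, 2.4% lower and 1.66% higher. An unadjusted p under 0.05 was reached by 15 of the 31, beside 16.3% of all genes. Negative values were seen in 21 of the 31 members and in 51.7% of all genes. The median log2 fold change of the members was −0.42, beside −0.02 over all genes.

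Shmt1, the cytosolic enzyme that splits serine into glycine and a one-carbon unit (chromosome 11, 60788897 to 60811265, minus strand), was at 54.2, 78.2 and 62.2 CPM in the IgG libraries and 31.6, 30.3 and 40 in AntiNRR. Every AntiNRR library lay below every IgG library. It fell by 0.93 ± 0.18 on the log2 scale (edgeR, adjusted p = 0.00235). Mthfd1, the cytosolic enzyme that interconverts one-carbon forms of folate (chromosome 12, 76254406 to 76319820, plus strand), was at 143, 162 and 148 CPM in IgG and 75.2, 79.7 and 108 in AntiNRR. The groups did not overlap, with AntiNRR 3 nearest to IgG. It fell by 0.78 ± 0.15 (edgeR, adjusted p = 0.00163).

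The other one-carbon members also had values below 0. Psat1, the second enzyme of serine synthesis, was at 72.8, 67.6 and 59.9 CPM in IgG and 36.9, 42.9 and 52.3 in AntiNRR, without overlap, and did not pass (−0.60 ± 0.18, adjusted p = 0.0507). Shmt2, the mitochondrial counterpart of Shmt1, was at 117, 101 and 116 and 57, 78.7 and 95.2 CPM and did not pass either (−0.54 ± 0.17, adjusted p = 0.0672). Phgdh (−0.32 ± 0.12), Mthfd2 (−0.57 ± 0.29), Mthfd1l (−0.50 ± 0.22) and Psph (−0.24 ± 0.29), the last step of serine synthesis, stood lower without a call. In all, 8 of 8 one-carbon members had a negative log2 fold change, with a median of −0.55 (−0.37 without AntiNRR 1).

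Among the transporters, Slc1a5, which exchanges glutamine and other neutral amino acids (chromosome 7, 16781334 to 16798274, plus strand), was at 58.4, 66.7 and 66.6 CPM in IgG and 41.6, 25.2 and 35.3 in AntiNRR. Its groups were clear of each other, and AntiNRR 2 was lowest. It fell by 0.90 ± 0.18 (edgeR, adjusted p = 0.00353). Slc7a1, the carrier of arginine and lysine (chromosome 5, 148327410 to 148399904, minus strand), was at 169, 177 and 197 CPM in IgG and 87.2, 100.1 and 139.7 in AntiNRR. The groups did not overlap, and AntiNRR 3 was again nearest to IgG. It fell by 0.73 ± 0.16 (edgeR, adjusted p = 0.0105).

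Slc7a5, which imports large neutral amino acids such as leucine, was at 101, 117 and 89.8 CPM in IgG and 50.9, 63.6 and 65.3 in AntiNRR, without overlap, and did not pass (−0.78 ± 0.22, adjusted p = 0.0538). Its partner chain gene Slc3a2 stood at −0.42 ± 0.17 (adjusted p = 0.195). Slc38a1 was at 661, 645 and 590.2 and 483, 527 and 477 CPM (−0.35 ± 0.10, adjusted p = 0.053), and its relative Slc38a2 stood at 0.03 ± 0.12 (95% interval −0.22 to 0.29). The cystine carrier gene Slc7a11 was the member of this group with the largest positive value (0.56 ± 0.41, adjusted p = 0.571). Over the 9 carriers, 2 fell, 7 had a negative value and the median was −0.48 (−0.75 without AntiNRR 3).

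Aldh18a1, which makes the precursor of proline and ornithine (chromosome 19, 40550257 to 40588463, minus strand) and whose upstream sequence with CACGTG is printed above, was at 101, 123 and 117 CPM in IgG and 85.8, 67.9 and 69 in AntiNRR. The groups did not overlap. It fell by 0.61 ± 0.16 (edgeR, adjusted p = 0.0257). The other members for amino acid synthesis did not pass, from Asns (−1.73 ± 1.50) with its few counts, through Bcat1 of branched-chain transamination (−0.87 ± 0.40), to Got2 (−0.08 ± 0.14), Bcat2 (0.15 ± 0.29) and Pycr1 of proline synthesis (0.20 ± 0.54).

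The stress effectors mostly had positive values, none of them called. Atf4 itself was at 77, 66.2 and 51.8 CPM in IgG and 53.7, 38.5 and 46.6 in AntiNRR, with overlapping libraries (−0.49 ± 0.18, adjusted p = 0.144). It was the only one of 7 tested stress members with a negative value, and the median of the 7 was 0.23 (0.09 without AntiNRR 2, 0.42 without AntiNRR 3 and 0.39 without IgG 3). Sesn2, an inhibitor of the growth kinase complex mTORC1, was at 3.71, 2.59 and 3.96 CPM in IgG and 5.43, 4.65 and 8.57 in AntiNRR (0.86 ± 0.57, adjusted p = 0.509). Ddit4, another mTORC1 inhibitor, was at 26.1, 16.6 and 40.3 and 58.4, 29.8 and 36.5 CPM with overlap (0.59 ± 0.40, adjusted p = 0.53). Ddit3, the stress factor CHOP, stood at 0.68 ± 0.53, and the ATF4 partners Cebpb and Cebpg at 0.18 ± 0.65 and 0.10 ± 0.15.

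**Figure D2:**
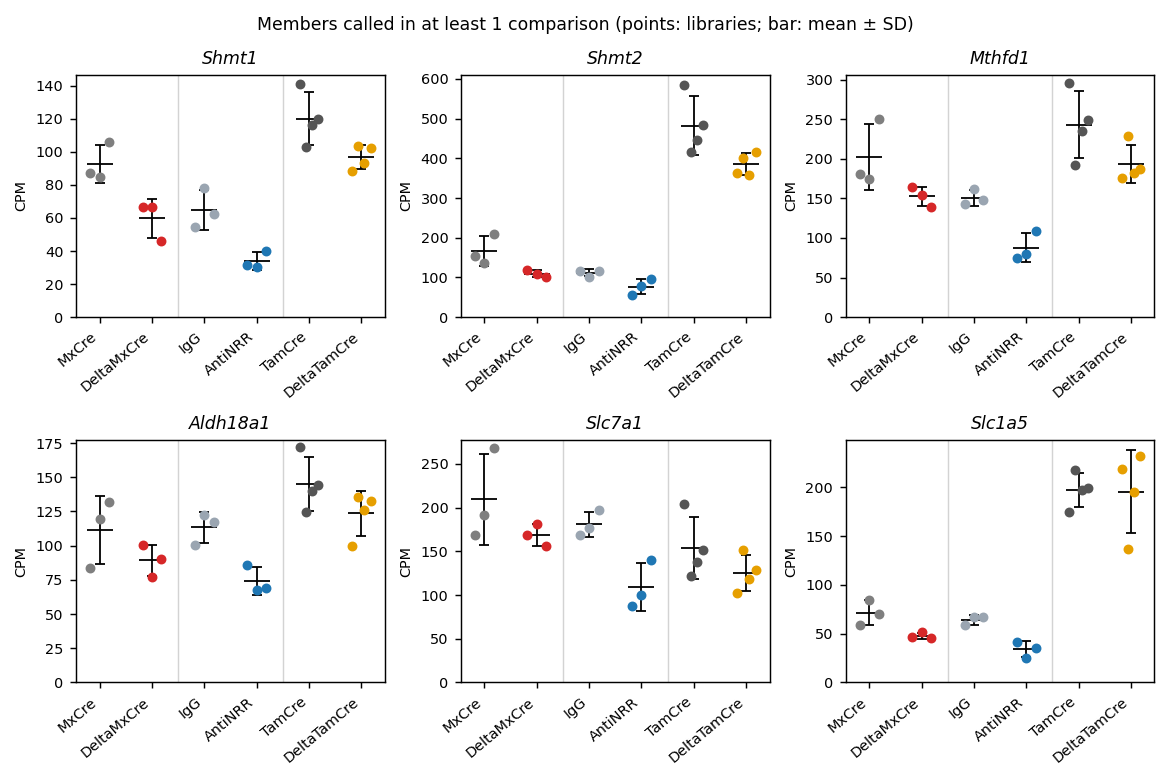
CPM (vertical axes, from 0) of the 6 members called in at least 1 comparison, for each library in 6 groups, with the group mean ± SD as bars. In Shmt1, Mthfd1, Slc1a5, Slc7a1 and Aldh18a1 all 3 AntiNRR points lie below all 3 IgG points, and the high point in MxCre for Shmt2, Mthfd1 and Slc7a1 is MxCre 3.

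Counted over libraries, AntiNRR lay wholly below IgG for 12 of the 31 members, beside 11.3% of all genes, and wholly above for 1, Sesn2, beside 10.3%. That number above was 2 or 3 without AntiNRR 1, AntiNRR 2, AntiNRR 3, IgG 2 or IgG 3. The median over members of log2 CPM minus the IgG mean was −0.04 to 0.07 in the IgG libraries and −0.40, −0.50 and −0.12 in AntiNRR 1, 2 and 3, without overlap. AntiNRR 3 was highest of its group in 17 of the 31 members (54.8%), 7 of 8 one-carbon genes among them, and in 32.8% of all genes. IgG 2 was highest of its group in 16 (51.6%), beside 31.8% of all genes. The number of members that fell was 3 without AntiNRR 2, IgG 2 or IgG 3 and 4 without AntiNRR 1, and 8 and 9 without MxCre 1 and MxCre 3, which share the estimate of spread. The calls of Shmt1, Mthfd1 and Slc1a5 held when any 1 library was left out. Aldh18a1 lost its call without AntiNRR 2 (adjusted p = 0.116), AntiNRR 3 (0.0985), IgG 2 (0.146) or IgG 3 (0.103), and Slc7a1 without AntiNRR 1 (0.0686), AntiNRR 2 (0.0778), IgG 2 (0.0565) or IgG 3 (0.0722). Over all alternatives the adjusted p ran from 0.00953 to 0.146 for Aldh18a1 and from 0.000572 to 0.0778 for Slc7a1. Among the members without a call, Psat1 and Slc7a5 passed in 8 of 20 alternatives each, Slc38a1 in 7, Shmt2 in 5 and Mthfd2 in 1. Summed markers moved with the antibody too: the 10 DN3 genes summed to 15682 to 15963 CPM in IgG and 9691 to 10552 in AntiNRR, and early progenitor genes, 7 of 8 in the table, to 137 to 159 and 194 to 239.5 CPM, with Flt3 at 0 in IgG and Lyl1 and Lmo2 in AntiNRR. Negative log2 fold changes were seen in 9 of the 10 DN3 genes and in 2 of the 4 progenitor genes tested, beside 51.7% of all genes. The progenitor sum therefore does not speak for each of its genes. The part of these markers in the fall of the members was not tested. Myc, a regulator of many growth genes, was at 177, 111 and 117 CPM in IgG and 69.7, 70 and 64.8 in AntiNRR (−0.99 ± 0.28, adjusted p = 0.0926), and its part was not tested either.

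**Figure D3:**
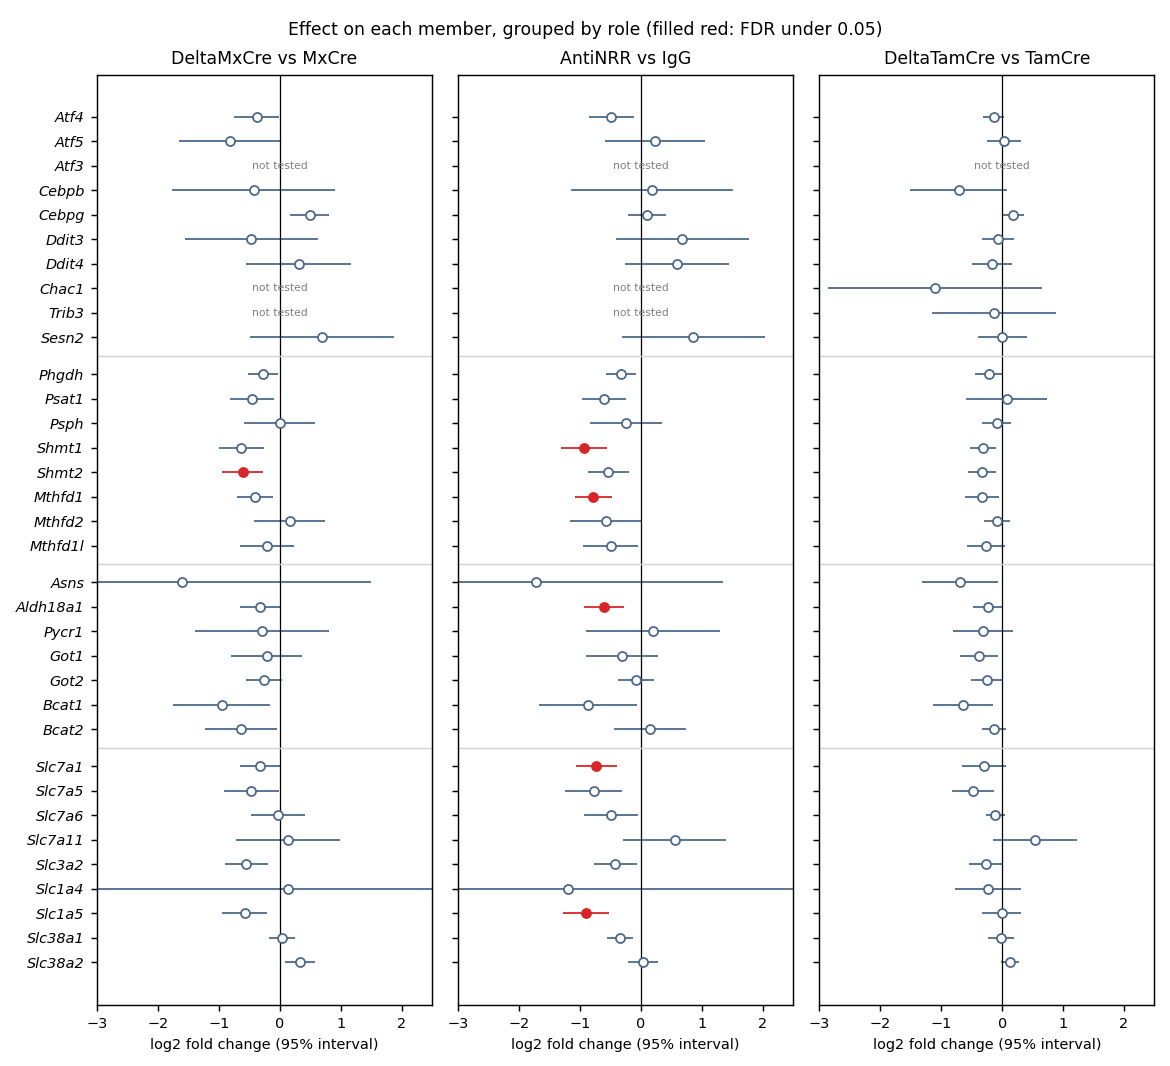
Log2 fold change of each member with its 95% interval (horizontal axis) in the 3 comparisons, in 4 blocks by role: stress effectors, one-carbon, other synthesis, transporters. Filled red points are the calls, 1 in DeltaMxCre, 5 in AntiNRR and 0 in DeltaTamCre, and the intervals of Asns and Slc1a4 in the SMARTer comparisons run past the axis.

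The first deletion comparison asked which members differed 8 weeks after loss of Zmiz1 with MxCre. The mitochondrial one-carbon gene Shmt2 fell, and most enzymes for serine and other amino acids stood lower without a call. Of 31 members tested, 1 fell, 0 rose and 30 did not pass, where 2.94% of all 13557 genes were called, 1.27% lower and 1.67% higher. An unadjusted p under 0.05 was reached by 13 of the 31, beside 16.5% of all genes. That number was 6 without MxCre 3, 9 without DeltaMxCre 2 or DeltaMxCre 3, and 15 without AntiNRR 1. Negative values were seen in 22 of the 31 members and in 53.3% of all genes. The median was −0.32 over the members, beside −0.03 over all genes, and −0.09 without MxCre 3. A count of 1 in 31 is near the background share and is no result about the members as a group.

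Shmt2 (chromosome 10, 127517123 to 127522444, minus strand) was at 153, 138 and 209 CPM in MxCre and 119, 109 and 101 in DeltaMxCre. Every DeltaMxCre library lay below every MxCre library, and MxCre 3 was highest. It fell by 0.60 ± 0.16 (edgeR, adjusted p = 0.041). That call was lost without MxCre 1 (adjusted p = 0.0509), MxCre 3 (0.2), DeltaMxCre 1 (0.0575), DeltaMxCre 2 (0.169), DeltaMxCre 3 (0.194) and, through the shared spread, IgG 1 (0.0554), IgG 2 (0.0604), IgG 3 (0.0626) or AntiNRR 2 (0.0592). With only the 2 groups compared in the fit the call was lost too (adjusted p = 0.0773), as it was with a replicate block (0.0607). Over all alternatives the adjusted p of Shmt2 ran from 0.0199 to 0.2. The span of Ndufa4l2 overlaps that of Shmt2 on the opposite strand, and no source used here says whether counting used strand. Reads from the shared stretch, whose length was not measured, may therefore have been counted for either gene. The same holds for Atf5, Cebpb, Ddit3, Psph and Bcat2, which also overlap other genes of the table.

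Shmt1 was at 87.5, 84.5 and 106 CPM in MxCre and 66.6, 66.3 and 46.3 in DeltaMxCre, without overlap, and did not pass (−0.63 ± 0.18, adjusted p = 0.0505). Slc1a5 was at 59.3, 84.6 and 70.5 and 46.4, 51.3 and 46 CPM, without overlap (−0.58 ± 0.18, adjusted p = 0.0854), and Mthfd1 at 181, 175 and 250.1 and 164, 154 and 139 CPM, without overlap (−0.41 ± 0.15, adjusted p = 0.137). Slc7a1 (169, 192 and 268 against 168, 181 and 156 CPM) and Aldh18a1 (83.6, 119 and 132 against 100.2, 77.3 and 90 CPM) overlapped and did not pass. The partner chain gene Slc3a2 stood at −0.55 ± 0.17 (adjusted p = 0.0797). Of 20 alternatives, Shmt1 passed in 5 and Slc3a2 in 1.

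Atf4 was at 113, 92 and 99.3 CPM in MxCre and 97.9, 74.4 and 61.6 in DeltaMxCre, with overlap (−0.38 ± 0.18, adjusted p = 0.28). Its relative Atf5 was lower without overlap but at few CPM (6.93, 7.05 and 10.7 against 5.2, 5.02 and 3.8; −0.82 ± 0.41, adjusted p = 0.319). Cebpg, an ATF4 partner, was the member whose DeltaMxCre libraries all lay above MxCre, at 93.8, 100.4 and 78.7 CPM against 77.8, 58.9 and 57.3 (0.49 ± 0.15, adjusted p = 0.0831). Cebpg rose without MxCre 1 (adjusted p = 0.0333) and by DESeq2 (0.0458), with 0.0333 to 0.341 over all alternatives. Slc38a2 stood at 0.33 ± 0.12 with overlap (adjusted p = 0.152), and it was the member that rose without MxCre 3 (adjusted p = 0.0179, with 0.0179 to 0.386 over all alternatives).

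In all, DeltaMxCre lay wholly below MxCre for 8 members, beside 10.8% of all genes, and wholly above for 1, beside 10.2% (2 without MxCre 3, DeltaMxCre 2 or DeltaMxCre 3). The 8 were Atf5, Phgdh, Shmt1, Shmt2, Mthfd1, Bcat2, Slc3a2 and Slc1a5. By role, 6 of 8 one-carbon members (median −0.34, and −0.22 without MxCre 3) and 7 of 7 other synthesis members (median −0.32, and −0.49 without MxCre 1) had negative values. The 9 carriers had 5 negative values and a median of −0.03, which ran from −0.33 without MxCre 1 to 0.08 without MxCre 3. The 7 tested stress members had 4 negative values and a median of −0.38, which was −0.17 without DeltaMxCre 3, −0.03 without MxCre 2 and 0.12 without MxCre 3. MxCre 3 held the highest value of its group in 21 of the 31 members (67.7%), 8 of the 8 one-carbon genes among them, and in 37.4% of all genes. DeltaMxCre 1 held the highest of its own group in 20 (64.5%), 7 of the 8 one-carbon genes among them, and in 34.5% of all genes. On the library median of the members, MxCre 3 stood at 0.27, MxCre 1 and 2 at −0.13 and −0.12, and the DeltaMxCre libraries at −0.11, −0.41 and −0.29, so the groups overlapped. Summed mature alpha-beta markers were 469 to 733 CPM in MxCre and 812 to 1039 in DeltaMxCre, with none of the 8 at 0. Of these 8 markers, 3 had negative log2 fold changes. Myc was at 237, 135 and 106 and 108, 76.6 and 79.1 CPM (−0.86 ± 0.28, edgeR adjusted p = 0.151). Neither these markers nor Myc was tested as a part in the values of the members.

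**Figure D4:**
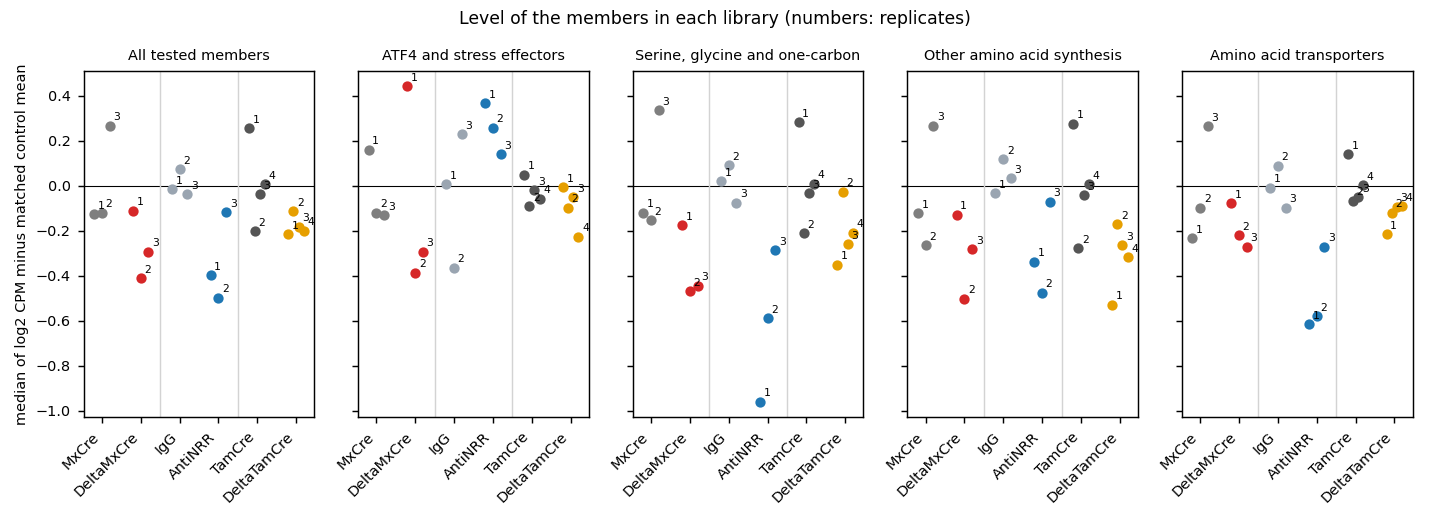
Median over members of log2 CPM minus the mean of the matched control group (vertical axis), for each library in 6 groups, over all tested members and by role, with replicate numbers beside the points. In the one-carbon panel MxCre 3, DeltaMxCre 1, AntiNRR 3, TamCre 1 and DeltaTamCre 2 each stand above the other libraries of their group. The AntiNRR points of the stress effectors lie above 0 but overlap those of IgG, with IgG 3 at 0.23 and AntiNRR 3 at 0.14.

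The second deletion comparison asked which members differed within 43 to 44 h of tamoxifen. No member passed, while most stood slightly lower in DeltaTamCre. Of 33 members tested, 0 were called by edgeR, where 0.0892% of all 13460 genes were called, 0.0297% lower and 0.0594% higher. An unadjusted p under 0.05 was reached by 8 of the 33, beside 16% of all genes, and by 4 without TamCre 1, 5 without DeltaTamCre 3 and 14 without TamCre 2. DESeq2 called 1 member, Slc7a5, and limma voom with quality weights 6, all lower, while the same tools called 533 and 1159 of all genes. Negative values were seen in 27 of the 33 members (81.8%) and in 46.2% of all genes, with medians of −0.21 (−0.14 without TamCre 1) and 0.02.

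The 6 genes that voom called were Bcat1, Got1, Mthfd1, Shmt1, Shmt2 and Slc7a5. Slc7a5 was at 271, 164, 173 and 202 CPM in TamCre and 125, 170.2, 139.6 and 145 in DeltaTamCre, where TamCre 1 was highest and the groups overlapped in DeltaTamCre 2 (−0.48 ± 0.15, edgeR adjusted p = 0.187). Shmt2 was at 585, 415, 446 and 484 CPM in TamCre and 364, 401, 359 and 416 in DeltaTamCre (−0.32 ± 0.11, adjusted p = 0.187). The groups touched only at TamCre 2 and DeltaTamCre 4. Shmt1 was at 141, 103, 116 and 119.7 and 88.6, 103, 93 and 102 CPM (−0.31 ± 0.10, adjusted p = 0.176), and again TamCre 2 lay among the DeltaTamCre libraries.

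Mthfd1 was at 295, 193, 235 and 249.5 CPM in TamCre and 175, 228, 182 and 187 in DeltaTamCre (−0.33 ± 0.13, adjusted p = 0.237). Bcat1 was at 24.8, 13.7, 22.2 and 23.4 and 13.4, 18.2, 9.46 and 12.8 CPM (−0.64 ± 0.22, adjusted p = 0.206), and Got1, with its ATF4 element, at 41.6, 26.3, 31.8 and 30.4 and 25.1, 29.7, 22 and 23 CPM (−0.38 ± 0.14, adjusted p = 0.225). In each of these genes at least 1 TamCre library lay within the DeltaTamCre range. The other members called elsewhere overlapped too, with Slc7a1 at 204, 122, 138 and 151 and 102, 152, 119 and 129 CPM (−0.29 ± 0.16) and Aldh18a1 at 172, 124, 140.0 and 144 and 99.9, 136, 126 and 133 CPM (−0.23 ± 0.11). Slc1a5, which fell after the antibody, was at 175, 217, 197 and 199 CPM in TamCre and 219, 136, 195 and 232 in DeltaTamCre (−0.01 ± 0.14, 95% interval −0.33 to 0.31).

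Atf4 was at 248, 246, 237 and 231 CPM in TamCre and 239, 193, 219 and 223 in DeltaTamCre (−0.14 ± 0.08, adjusted p = 0.402). Psat1 split its control group, at 229, 93.1, 205 and 102 CPM in TamCre 1 to 4, with the DeltaTamCre libraries in between at 162, 194, 148 and 157 CPM. Replicates 1 and 3 were high and 2 and 4 low, and the fold change had a wide error (0.07 ± 0.29). Slc38a2 was the single member without overlap, higher in DeltaTamCre at 309, 318, 294 and 287 CPM against 279, 282, 274 and 264 (0.13 ± 0.07, adjusted p = 0.348), beside 4.84% of all genes wholly higher and 5.75% wholly lower.

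**Figure D5:**
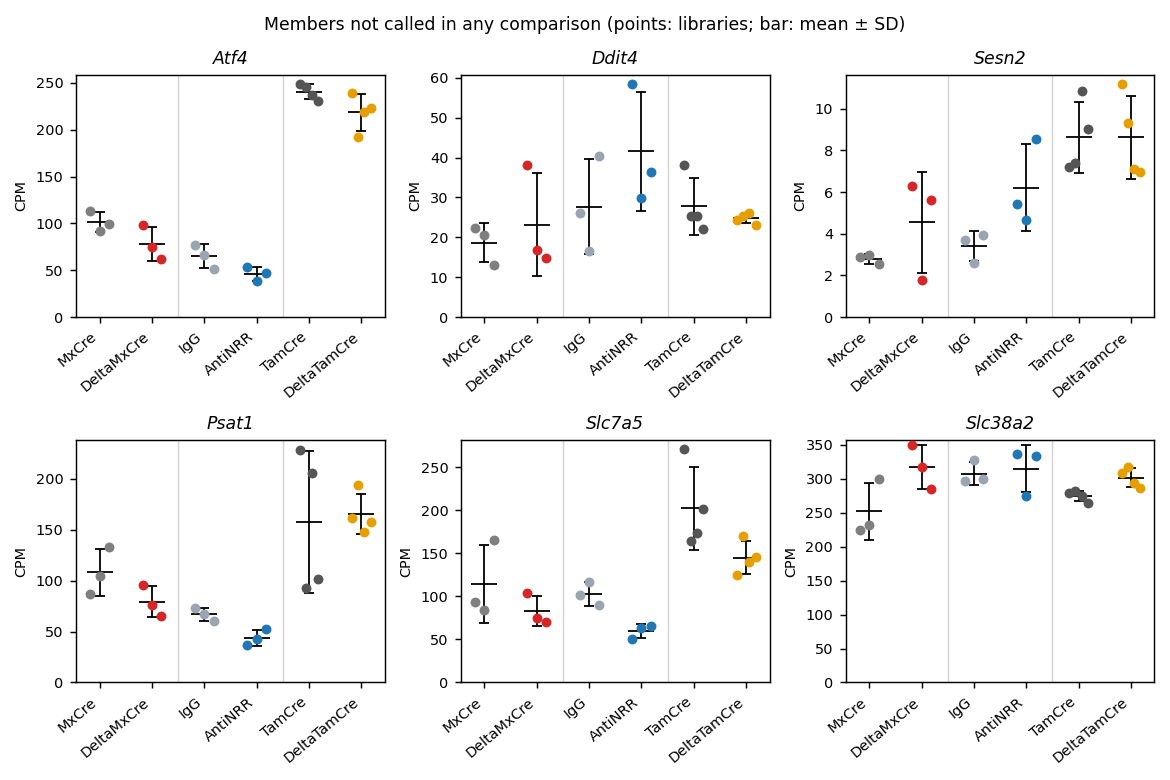
CPM (vertical axes, from 0) of 6 members without a call in any comparison, for each library in 6 groups, with the group mean ± SD as bars. The TamCre points of Psat1 fall into a high and a low pair, and the Slc7a5 points of AntiNRR all lie below those of IgG.

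TamCre 1 held the highest value of its group in 24 of the 33 members (72.7%) and in 37.6% of all genes, and TamCre 2 the lowest in 20 (60.6%) and in 31.5% of all genes. In 8 of 8 one-carbon genes TamCre 1 was highest and TamCre 2 lowest. DeltaTamCre 2 was highest of its group in 15 of the 33 members (45.5%), 6 of 8 one-carbon genes among them, and in 31.2% of all genes. No member lay wholly lower with all libraries, whereas 11 did without TamCre 2, 6 without DeltaTamCre 2, 3 without DeltaTamCre 4 and 1 without DeltaTamCre 1. Without TamCre 3 or DeltaTamCre 2 or 4, 2 members lay wholly higher. By role, 7 of 7 other synthesis members had negative values (median −0.31), 7 of 8 one-carbon members (median −0.24, and −0.14 without TamCre 1), 7 of 9 carriers (median −0.11, and −0.07 without TamCre 1) and 6 of 9 tested stress members (median −0.14; −0.09 without TamCre 1 and −0.08 without TamCre 2). Summed mature alpha-beta markers were 809.5 to 818 CPM in TamCre and 929.8 to 1132 in DeltaTamCre, with none of the 8 at 0. Of these 8 markers, 2 had negative log2 fold changes. The part of these markers in the values of the members was not tested. Myc was at 553, 604, 549 and 568 and 402, 341, 501 and 453 CPM (−0.42 ± 0.11, adjusted p = 0.133).

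The 3 comparisons share no library, and their effects were set against each other directly. Of 31 members tested in all 3, 16 (51.6%) had a negative value in each and 4 (12.9%) a positive one, namely Cebpg, Sesn2, Slc38a2 and Slc7a11. Over 12819 genes these shares were 21.5% and 19.7%. No member passed edgeR's test of a difference between effects in any of the 3 tests, where 1.23% (DeltaMxCre minus AntiNRR), 0.166% (DeltaTamCre minus DeltaMxCre) and 0.698% (DeltaTamCre minus AntiNRR) of all genes were called. Unadjusted p under 0.05 was reached by 1 of 31, 2 of 32 and 2 of 32 members, beside 12.5%, 6.79% and 11.8% of all genes, and DESeq2 called 1 member, in DeltaTamCre minus AntiNRR. The nearest to a call was Slc1a5, whose DeltaTamCre effect lay 0.86 ± 0.22 above its AntiNRR effect (95% interval 0.39 to 1.32, edgeR adjusted p = 0.0736). For Shmt1 that difference was 0.59 ± 0.21 (adjusted p = 0.245), so a fall in AntiNRR without a call in DeltaTamCre was not shown to differ. For Slc38a1, the DeltaMxCre effect minus the AntiNRR effect was 0.38 ± 0.15 (adjusted p = 0.242), and for Shmt2 it was −0.07 ± 0.23 (95% interval −0.55 to 0.41).

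Related pathways were counted from 6 further lists. Over all genes, 2.94%, 4.06% and 0.0892% were called in DeltaMxCre, AntiNRR and DeltaTamCre. Of 32 genes for amino acid sensing and mTORC1, 29 were tested in each comparison. In DeltaMxCre 2 of these rose, namely Slc38a9, a lysosomal arginine sensor, from 32.3, 32.3 and 23.6 to 52, 67 and 46.5 CPM (0.91 ± 0.20, adjusted p = 0.00986), and Deptor, an inhibitor of mTOR, from 12.9, 10.6 and 7.96 to 23.3, 23.3 and 33.8 CPM (1.36 ± 0.36, adjusted p = 0.0358). In AntiNRR 1 rose, Sesn3, a relative of Sesn2, from 32.8, 31.3 and 54.1 to 68.8, 90.7 and 73.8 CPM (0.98 ± 0.20, adjusted p = 0.0037). The medians of this list were −0.10, −0.02 and −0.05 in DeltaMxCre, AntiNRR and DeltaTamCre. Of all genes, 1.67% were called higher in DeltaMxCre and 1.66% in AntiNRR. All perturbed libraries lay above their controls for 5 genes of this list in DeltaMxCre, Slc38a9 and Deptor among them. In AntiNRR that held for 4, Sesn3 among them. The shares over all genes were 10.2% and 10.3%.

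Of 33 other one-carbon and amino acid enzymes, 32 were tested in the SMARTer comparisons. In DeltaMxCre the proline dehydrogenase gene Prodh fell (45.7 ± 10.7 to 25.9 ± 2.96 CPM; −0.82 ± 0.20, adjusted p = 0.0213). In AntiNRR, Odc1 of polyamine synthesis (−0.77 ± 0.18, adjusted p = 0.0152) and Mat2a, which makes the methyl donor S-adenosylmethionine (−0.54 ± 0.13, adjusted p = 0.0171), fell. The list's medians were −0.14, −0.12 and −0.10. Among 27 other transporters, of which 17 were tested in AntiNRR, the neutral amino acid carrier gene Slc43a2 rose from 106, 95.7 and 84 to 199, 205 and 184 CPM (1.04 ± 0.16, adjusted p = 0.000243), opposite in direction to Slc1a5 and Slc7a1.

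Of 16 sensors and phosphatases of the integrated stress response, 1 fell in AntiNRR, where 2.4% of all genes were called lower. It was Eif2s1, the subunit of eIF2 that is phosphorylated (165 ± 10.9 to 113 ± 13.4 CPM, −0.54 ± 0.14, adjusted p = 0.0245). None of 19 genes of the endoplasmic reticulum unfolded protein response was called by edgeR in any comparison. Of all genes, 2.94%, 4.06% and 0.0892% were called in DeltaMxCre, AntiNRR and DeltaTamCre. An unadjusted p under 0.05 was reached by 7, 5 and 3 of the 19, beside 16.5%, 16.3% and 16% of all genes. Their medians were −0.06, 0.07 and −0.05. None of the 18 or 19 tested genes among 25 other known ATF4 or stress targets was called, with 3, 2 and 4 at an unadjusted p under 0.05, against those same shares. In DeltaTamCre none of the 6 lists held a call by edgeR. The other tools were not run as counts over these lists.

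In the authors' deposited table, q under 0.1 was listed for 11 of the 31 members in AntiNRR, 10 of them lower, beside 13.5% of all genes and 6.06% lower. The member that the authors' deposited table lists higher there is the stress effector Ddit4 (ratio 1.46, q = 0.0673). In DeltaMxCre the authors' deposited table lists q under 0.1 for 9 members, 8 of them lower, beside 9.22% and 4.85%. The member that the authors' deposited table lists higher there is Cebpg (ratio 1.39, q = 0.0711). In DeltaTamCre the authors' deposited table lists q under 0.1 for 13 of 33, all lower, beside 11.2% and 6.31%. The table's fold changes had the direction found here for 28, 30 and 31 of these members. All 5 members called in AntiNRR and the 1 called in DeltaMxCre had q under 0.1 there. For Shmt1 the authors' deposited table gives perturbed-to-control ratios of 0.538 in AntiNRR (q = 0.00143), 0.638 in DeltaMxCre (q = 0.0103) and 0.746 in DeltaTamCre (q = 0.00246). For Slc7a5 the authors' deposited table gives 0.623 (q = 0.00143), 0.664 (q = 0.0143) and 0.678 (q = 0.00246), and for Atf4 0.755, 0.739 and 0.92.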

How the data were processed

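RNA-seq values of 20 mouse libraries were used. Per the submitters' processing notes, FastQC 0.10.0, TopHat2 2.0.9, Bowtie2 2.1.0.0, Cufflinks and Cuffdiff 2.1.1 were used with mm10; no source used here gives annotation, strand or counting options, or how reads of near-identical copies were split. The authors' deposited table of expected counts holds 98.38% whole values. A second deposited table gives the authors' group FPKM, the ratio (fold change) of perturbed to control, p-value and q-value, per the file headers.

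Counts were rounded, filtered with filterByExpr, scaled by TMM and fitted under R 4.3.3 by edgeR 4.0.16 (robust quasi-likelihood test, group means, FDR 0.05). The 12 SMARTer libraries entered 1 fit, the 8 TruSeq libraries another, and all 20 the differences with DeltaTamCre. Atf3, Chac1 and Trib3 failed the filter with SMARTer and Atf3 with TruSeq. A median of log2 CPM used a prior count of 2. Alternatives used DESeq2 1.42.0, limma 3.58.1, other scalings and filters, and libraries left out. The fits were tested on simulated counts. Among 190 pairs of libraries no duplicate was found. Members and lists were chosen with earlier results of these data known. All 34 members were eligible to be named, and those called at least once are given in every library; from each further list, at most the 3 called genes with the smallest adjusted p per comparison were named. Other uncalled members shown per library were picked after their values were seen. Results for some genes of the further lists and markers are not reported here.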

Additional observations from a re-analysis of the deposited data

Results flagged for a closer look

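Samples far from the rest of their group were looked for in 68 groups of 4 member values, all in the TruSeq libraries, where chance flags about 1 in 20 groups, and 3 were found. Slc38a1 was at 487 CPM in TamCre 1, and the next TamCre library was at 446 CPM. Atf3 was at 0.609 CPM in TamCre 1 and at 0 in the other TamCre libraries. Mthfd1l was at 112 CPM in DeltaTamCre 2, and the next DeltaTamCre library was at 89.3 CPM. Groups of 3 were not examined in this way.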

How the results depend on the processing

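Deviations of same-numbered libraries correlated at −0.0377 to 0.0238 in the SMARTer pairs and −0.357 to −0.0145 in the Tam pairs. These values gave no sign of pairing by replicate number. Across different numbers, DeltaTamCre 2 with TamCre 1 stood at 0.307 and DeltaTamCre 1 with TamCre 2 at 0.222. The other differently numbered Tam pairs ran from −0.0652 to 0.143. Whether libraries with different numbers shared a batch was not tested. With a replicate block, 0 members were called in DeltaMxCre (adjusted p of Shmt2 = 0.0607) and 0 genes in all in DeltaTamCre, beside 1 and 12 without it, and 6 members in AntiNRR, beside 5.

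In AntiNRR, 830 genes were called by DESeq2, beside 551, and 8 members by DESeq2 and 9 each with only the 2 groups compared and with upper-quartile scaling. In DeltaMxCre, 679 genes were called by DESeq2 and 183 with only the 2 groups compared, beside 399. Members called there were 4 by DESeq2 (3 fell, 1 rose), 2 by limma voom, 2 with no filter and 0 with only the 2 groups compared. In DeltaTamCre, 533 genes were called by DESeq2, 1159 by limma voom and 2 with all 20 libraries in 1 fit, beside 12, and 1 and 6 members by DESeq2 and limma voom. For DeltaTamCre minus AntiNRR, DESeq2 called 1 member. The cause of these shifts was not tested.

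Leaving out 1 library gave 257 to 817 genes and 3 to 9 members in AntiNRR, 138 to 434 and 0 to 2 in DeltaMxCre, and 0 to 8 genes and 0 to 0 members in DeltaTamCre. The differences gave 0 to 1 members for DeltaTamCre minus AntiNRR and 0 to 0 for the other two. For single members, 8, 11 and 0 alternative values in AntiNRR, DeltaMxCre and DeltaTamCre lost a call, 29, 9 and 7 gained one, and no called member changed sign. RLE and upper-quartile scaling left the number of negative members at 21 in AntiNRR, 22 in DeltaMxCre and 27 in DeltaTamCre, apart from 28 with RLE in DeltaTamCre. Depth limits Asns, Slc1a4, Chac1, Trib3 and Atf3, which had few counts.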
